A study of Mus musculus with 24 samples.

Results

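The catenin genes of the mouse genome were examined for windows of DNA in which 5-hydroxymethylcytosine (5hmC) differed between a pair of embryonic stem cell (ESC) clones. Such a window is called a differentially hydroxymethylated region (DhMR). A DhMR belonged to a catenin when its midpoint lay between the start and the end of *Ctnna1*, *Ctnna2*, *Ctnna3*, *Ctnnb1*, *Ctnnd1* or *Ctnnd2*, or when the deposited list gave it the Ensembl identifier of that gene. This took 51 of 20726 DhMRs, 40 of them inside a gene and 11 outside every catenin gene. *Ctnna3* held 33 of the 40. The genes were chosen by their known counts of DhMRs in these same lists, so the numbers below describe *Ctnna3* and its relatives and carry no test.

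Both clones came from mouse ESCs of a mixed C57BL/6J and 129V background in which *Tet1*, *Tet2* and *Tet3* are disrupted, and both were grown in 2i medium with LIF. Wt25 cells carry a lentiviral human Tet3 of wild-type sequence, and AA10 cells carry the same enzyme with the serines of its cdk5 phosphorylation sites changed to alanine. Each line is 1 puromycin-selected clone, so the enzyme and the clone cannot be told apart. 5hmC-bearing DNA was pulled down with an antibody (5hmC-DIP) in 3 libraries of each line, among 24 samples of the series, and the lists hold the outcome of 1 comparison over these libraries. No expression values were used, and the ESC identity of the lines was not checked against marker genes here.

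Catenins are cytoplasmic proteins that bind the tails of cadherins and tie cell-cell junctions to the actin cytoskeleton. The α-catenins bind β-catenin and actin: *Ctnna1* encodes the widely expressed αE-catenin, *Ctnna2* the neural αN-catenin and *Ctnna3* the αT-catenin known from heart muscle and testis. β-catenin (*Ctnnb1*) is also the nuclear effector of Wnt signalling. The δ-catenins p120 (*Ctnnd1*) and its neural relative (*Ctnnd2*) steady cadherins at the membrane. 5hmC is made by Tet enzymes from 5-methylcytosine, which in mouse sits mostly at CpG dinucleotides. A DhMR here is a bin of 200 bp, listed as 198 bp, and is called an AA10 window or a Wt25 window after the line with more 5hmC. The lists give no 5hmC level, so a bin that is not listed may hold 5hmC in both lines or in neither.

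The sequences of *Ctnna3* windows from both ends of the region and from both ends of the CpG range show what kind of DNA was listed. They are given 5′ to 3′ on the plus strand of GRCm38, which is also the strand of *Ctnna3*, with each CpG in capitals.
Ctnna3 nearest to the gene start, chr10:63430403-63430600: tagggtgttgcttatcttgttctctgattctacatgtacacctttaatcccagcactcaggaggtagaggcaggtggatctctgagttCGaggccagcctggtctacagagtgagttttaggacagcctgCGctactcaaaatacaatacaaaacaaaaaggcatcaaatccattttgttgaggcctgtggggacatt
Ctnna3 fewest CpGs, chr10:63430603-63430800: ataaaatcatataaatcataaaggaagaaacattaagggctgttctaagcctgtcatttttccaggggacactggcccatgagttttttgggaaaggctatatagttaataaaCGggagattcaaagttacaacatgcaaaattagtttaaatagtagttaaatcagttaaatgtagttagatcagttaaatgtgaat
Ctnna3 most CpGs, chr10:63494603-63494800: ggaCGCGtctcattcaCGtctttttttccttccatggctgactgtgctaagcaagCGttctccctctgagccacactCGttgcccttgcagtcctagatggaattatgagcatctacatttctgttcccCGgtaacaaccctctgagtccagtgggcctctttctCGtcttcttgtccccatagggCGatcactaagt
Ctnna3 nearest to the gene end, chr10:63613003-63613200: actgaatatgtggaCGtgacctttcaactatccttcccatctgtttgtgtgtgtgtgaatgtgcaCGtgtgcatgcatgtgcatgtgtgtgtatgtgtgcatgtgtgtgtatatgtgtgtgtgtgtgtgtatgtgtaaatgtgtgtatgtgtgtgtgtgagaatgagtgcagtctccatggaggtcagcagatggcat
All 4 were AA10 windows. The window nearest to the gene start lay in the first intron, 322 bp from the first exon, and was also the nearest of all to an exon. The window with the most CpGs held 8 of them. The window with the fewest held 1, and it is the first along the gene of several with this number. By the lower-case marks of the genome sequence, the window nearest to the gene start was 65.7% repeat. The window nearest to the gene end is rich in TG repeats. The paper reports removing DhMRs with simple tandem repeats, yet the window nearest to the gene end was still in the list.

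The windows of the other catenins with the most CpGs in each direction are set beside them, again on the plus strand with CpGs in capitals.
Ctnna2 higher in AA10, chr6:76987203-76987400: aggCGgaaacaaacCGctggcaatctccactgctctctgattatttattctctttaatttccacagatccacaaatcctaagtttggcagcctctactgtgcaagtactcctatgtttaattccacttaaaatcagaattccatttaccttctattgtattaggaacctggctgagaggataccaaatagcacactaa
Ctnna2 higher in Wt25, chr6:77222203-77222400: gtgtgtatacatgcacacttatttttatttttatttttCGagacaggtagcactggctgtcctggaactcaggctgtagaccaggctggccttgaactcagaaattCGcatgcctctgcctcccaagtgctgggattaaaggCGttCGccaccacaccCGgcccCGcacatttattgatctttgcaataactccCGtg
Ctnnd2 higher in Wt25, chr15:30384403-30384600: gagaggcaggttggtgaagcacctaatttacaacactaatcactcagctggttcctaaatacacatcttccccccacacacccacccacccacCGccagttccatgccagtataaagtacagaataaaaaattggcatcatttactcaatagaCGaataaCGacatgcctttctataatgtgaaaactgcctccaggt
Ctnnd1 higher in AA10, chr2:84643803-84644000: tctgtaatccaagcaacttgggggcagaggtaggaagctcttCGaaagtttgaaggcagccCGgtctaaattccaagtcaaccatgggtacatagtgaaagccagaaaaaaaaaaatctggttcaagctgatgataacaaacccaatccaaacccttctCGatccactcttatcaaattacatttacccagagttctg
The *Ctnna2* window of the Wt25 list held 7 CpGs and was 83.8% repeat by the lower-case marks of the genome sequence. The *Ctnna2* window of the AA10 list held 2 CpGs, and the *Ctnnd2* and *Ctnnd1* windows held 3 each.

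In *Ctnna3* (ENSMUSG00000060843), every window that was listed came from the AA10 list. The gene spans 1573.57 kb of chromosome 10, from 63430098 to 65003667 on the plus strand, and held 33 AA10 windows and 0 Wt25 windows. This was 2.10 AA10 windows per 100 kb, 6.43 times the 0.33 per 100 kb of the whole genome. For comparison, 0.0652% of the 200 bp bins of the genome were AA10 windows and 0.0914% were Wt25 windows, and 9.98% of 21938 protein-coding genes held at least 1 AA10 window and 13.3% at least 1 Wt25 window. Since the gene was selected on this count, nothing is read from the contrast.

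The windows were not spread over *Ctnna3* but gathered at its 5′ end. The first 100 kb, 6.35% of the gene, held 32 of the 33 windows. The remaining 1473.57 kb held 1, at 183.0 kb from the start. After that window no DhMR of either direction was listed over the last 1390.47 kb of the gene, nor over the 1195.13 kb that follow it. The stretch without a DhMR therefore ran for 2585.60 kb, and it took in *Lrrtm3*, a gene for a synaptic adhesion protein that lies inside *Ctnna3* on the opposite strand.

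**Figure D1:**
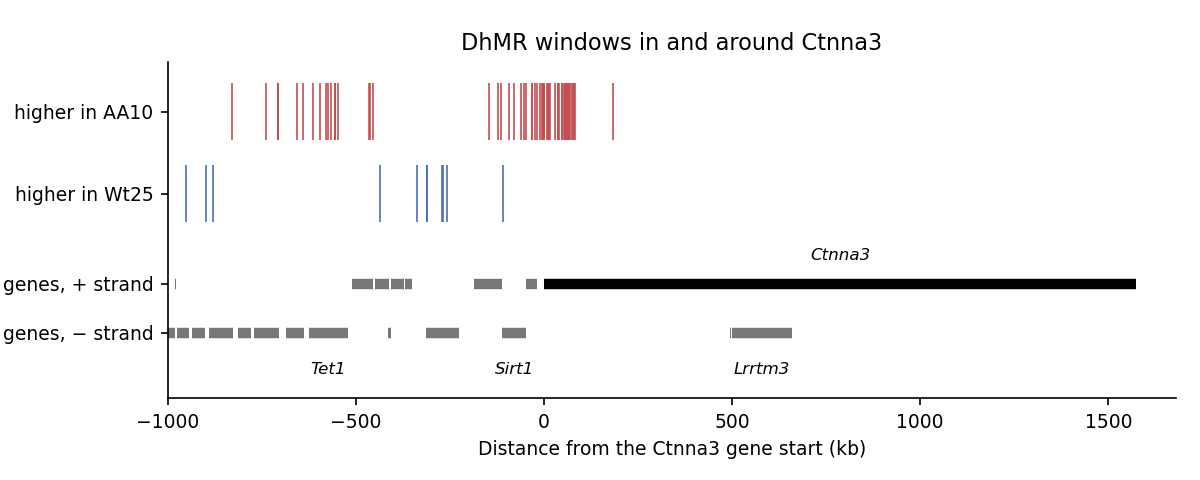
Positions of DhMR windows by distance from the start of Ctnna3 in kb, as vertical lines for windows higher in AA10 (red) and in Wt25 (blue), with protein-coding genes of each strand as bars below. The 33 windows inside Ctnna3 (black bar) are all AA10 windows, 32 of them in the first 100 kb, and AA10 windows go on before the gene start.

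The windows of *Ctnna3* were intronic. None of the 33 had its midpoint in an exon of the transcript with the most exons (18), and 3 of its 17 introns held windows. Intron 1, of 73.85 kb, held 29, or 39.3 per 100 kb. Intron 2, of 33.39 kb, held 3, and intron 5, of 238.16 kb, held 1. Intron 7, the longest at 397.87 kb, held 0. The distance from a window to the nearest exon of any annotated transcript went from 322 bp to 31038 bp.

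GENCODE gives *Ctnna3* 3 transcript start sites, at 0, 27.4 and 73.9 kb from the gene start. Between the first start and the second lay 6 windows, between the second and the third 23, and after the third 4. The span between the second and the third start thus had 49.4 windows per 100 kb, against 21.9 before it. In steps of 10 kb, the fullest step was from 50 to 60 kb with 9 windows, followed by 60 to 70 kb with 7. From 90 to 180 kb no step held a window.

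Within the first 100 kb the median gap between neighbouring windows was 1602 bp and the largest 14402 bp. Joined where they touched, the 33 windows made 26 regions, and joined over gaps of up to 1 kb they made 20. A run was defined as at least 20 consecutive windows of 1 direction with gaps of at most 10000 bp. By this definition 26 of the *Ctnna3* windows formed 1 run of 52.40 kb, from 63459603 to 63512000. It was 1 of 22 AA10 runs in the genome, and 14 of those held more windows, the fullest of them 387.

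The AA10 windows did not stop at the gene start. The deposited list gave the identifier of *Ctnna3* to 5 more AA10 windows before the gene, whose midpoints lay from 2.40 to 19.80 kb before it, the farthest inside the end of *Dnajc12*, which encodes a co-chaperone of the DnaJ family. In the 100 kb before *Ctnna3* lay 13 AA10 windows and 0 Wt25 windows, 13 per 100 kb against 32 in the first 100 kb of the gene. Counted without regard to gaps, 46 AA10 windows followed each other over 276.20 kb with no Wt25 window among them, and 33 of them were those of *Ctnna3*. *Dnajc12*, the nearest large gene before *Ctnna3*, held 4 AA10 windows and 0 Wt25 windows. Over the whole 500 kb before the gene, 19 AA10 windows and 8 Wt25 windows were listed, and over the 500 kb after it none.

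**Figure D2:**
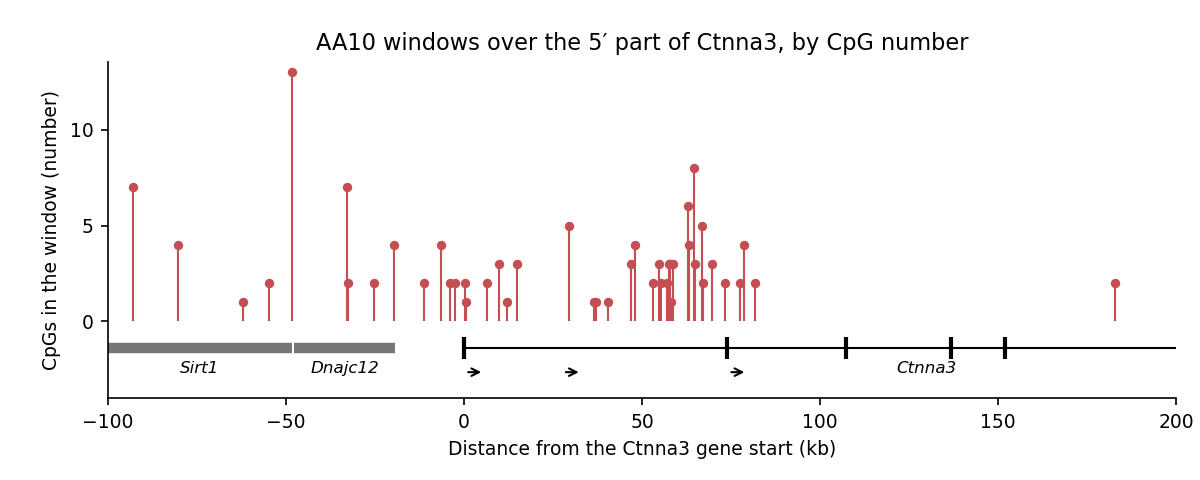
Number of CpGs in each AA10 window (points on stems) against distance from the start of Ctnna3 in kb, with exons of the transcript with the most exons (ticks), the 3 transcript starts (arrows) and the genes before Ctnna3 (grey bars). Windows thicken between 50 and 70 kb, and the window with 8 CpGs is at 64.6 kb.

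The CpG numbers of the *Ctnna3* windows lay within the range of all AA10 windows. They held 1 to 8 CpGs, with a mean of 2.79 ± 1.56 (SD over 33 windows) and a median of 3, beside a mean of 3.16 ± 2.36 and a median of 3 over all 8630 AA10 windows. Windows with 1 or 2 CpGs made up 48.5% of them and 47.9% of all AA10 windows. None of the *Ctnna3* windows lacked a CpG. Their GC content went from 31.3% to 55.1% with a median of 42.9%, against a median of 46.0% in all AA10 windows. The motif CCGG, which reads the same on both strands, was in 2 of the 33 windows (6.06%), in 20.9% of all AA10 windows and in 22.2% of all Wt25 windows.

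Some of the *Ctnna3* windows lay in repeats. At least 50% of the bases were marked as repeat in 9 of the 33 windows (27.3%), against 28.2% of all AA10 windows and 46.5% of the AA10 windows in the other AA10 runs. To see how far a window could be told from other places in the genome, its 167 overlapping stretches of 32 bases were looked up on both strands. In 22 of the 33 windows every stretch occurred once in the genome, and the lowest share of such stretches in a window was 21.6%. Reads were kept by the authors only where they aligned uniquely.

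Bins of *Ctnna3* with different CpG numbers were also compared. In the first 100 kb, AA10 windows took 4.41% of the 136 bins with 1 CpG, 8.18% of the 110 with 2 CpGs, 14.7% of the 68 with 3 and 8.64% of the 81 with 4 or more. None of the 105 bins without a CpG was listed. In the whole genome the shares were 0.0540%, 0.0851%, 0.125% and 0.186%, rising with CpG number, and in the rest of *Ctnna3* only 1 bin of 7368 was listed. Every CpG class but that of 0 was therefore denser in AA10 windows at the 5′ end of *Ctnna3* than in the genome. The gene was chosen for its count of AA10 windows, so nothing is read from this contrast.

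The other α-catenin genes looked different. *Ctnna2* (ENSMUSG00000063063) is shorter, with 1098.06 kb against the 1573.57 kb of *Ctnna3*. It lies on chromosome 6 from 76881637 to 77979699 on the minus strand, and held 1 AA10 window and 2 Wt25 windows. These are 0.09 AA10 and 0.18 Wt25 windows per 100 kb, or 0.279 and 0.399 times the genome. None was near the 5′ end. The Wt25 windows lay in intron 8, at 397.0 and 757.4 kb from the gene start, and the AA10 window in intron 10 at 992.4 kb. The deposited list gave none of the 3 to *Ctnna2*. It gave 2 to *Lrrtm1*, a relative of *Lrrtm3* nested in *Ctnna2*, and 1 to 6330415B21Rik, while *Lrrtm1* itself held no window. On chromosome 6, 88.2% of the DhMRs outside *Ctnna2* were AA10 windows (999 against 134), and the chromosome had the highest AA10 share of any.

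*Ctnna1* (ENSMUSG00000037815), the α-catenin of most epithelia, covers 135.92 kb of chromosome 18 from 35118859 to 35254779 on the plus strand and held 0 windows of either direction. The Wt25 list gave its identifier to 5 windows that lie 66.56 to 75.76 kb before its start, inside the gene model AC131675.3. A further Wt25 window lay 1824 bp past its end and was given to *Lrrtm2*, which is nested in *Ctnna1* and held no window. So the windows nearest to *Ctnna1* on both sides were Wt25 windows.

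The δ-catenin genes held 4 windows. *Ctnnd2* (ENSMUSG00000022240), 856.75 kb of chromosome 15 from 30172593 to 31029341 on the plus strand, held 3 Wt25 windows and 0 AA10 windows. They lay at 211.9 and 254.1 kb in intron 2 and at 362.1 kb in intron 3, more than 40 kb from each other and more than 50 kb from any exon. Their density, 0.35 per 100 kb, was 0.766 times that of Wt25 windows in the genome. *Ctnnd1* (ENSMUSG00000034101) is only 50.70 kb long, on the minus strand of chromosome 2 from 84600071 to 84650765. It held 1 AA10 window in intron 1, 6.86 kb from the gene start, where the gene model Gm28635 overlaps it, and a second AA10 window 13.8 kb past its end carried its identifier. That 1 window gave *Ctnnd1* 1.97 AA10 windows per 100 kb, close to the 2.10 of *Ctnna3* with 33, so the density of the short gene rests on a single window.

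*Ctnnb1* (ENSMUSG00000006932), 31.29 kb of chromosome 9 from 120929216 to 120960507 on the plus strand, held 0 windows, and no window carried its identifier. The nearest DhMRs were Wt25 windows at 251.6 and 307.1 kb. With 1.75 CpGs per 100 bp it had the most CpGs for its length of the 6 genes, against 0.69 in *Ctnna3* and 0.83 in the genome.

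**Figure D3:**
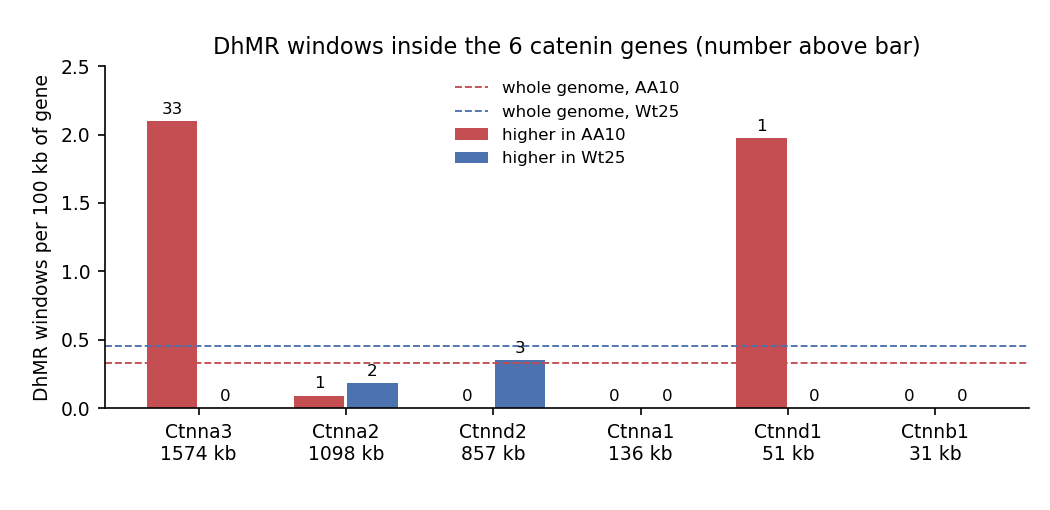
DhMR windows per 100 kb of gene for the 6 catenin genes in order of length, as bars for windows higher in AA10 (red) and in Wt25 (blue) with the number of windows above each bar, and dashed lines at the density of the whole genome. Ctnna3 reaches 2.10 with 33 AA10 windows and Ctnnd1 1.97 with 1, and the other bars are below the genome.

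By direction, the 33 windows of *Ctnna3* were all AA10 windows, and the gene was chosen for its count of these. In the genome 41.6% of DhMRs were AA10 windows. On chromosome 10 outside *Ctnna3* the share was 34.1% (358 against 691), in the 500 kb on both sides of the gene it was 70.4% (19 against 8), and in the other protein-coding genes of at least 500 kb it was 33.4% (255 against 509). *Ctnna2* with 1 of 3 AA10 windows and *Ctnnd2* with 0 of 3 hold too few windows for a share to say more than their counts.

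Against all protein-coding genes, *Ctnna3* ranked 5 of 21938 by the number of AA10 windows inside. The genes before it were *Paip1* with 60, 4833420G17Rik with 58, *Ccl28* with 50 and Gm20767 with 44, all on chromosome 13 and 15.1 to 30.5 kb long. By AA10 windows per 100 kb *Ctnna3* ranked 1215, since its length of 1573.57 kb spreads 33 windows thinly. *Ctnna2* and *Ctnnd1* shared place 773 by AA10 windows, each level with 1416 other genes. By Wt25 windows *Ctnnd2* was at 369 and *Ctnna2* at 596.

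Among the 228 protein-coding genes of at least 500 kb, *Ctnna3* held the most AA10 windows, and by AA10 windows per 100 kb it ranked 2, behind *Magi1*. Of these long genes 41.7% held at least 1 AA10 window and 48.2% at least 1 Wt25 window, the median being 0 in both directions. The gene next after *Ctnna3* held 22, and 5 long genes held 10 or more. *Ctnna2* and *Ctnnd2* were among the many long genes with 0 to 3 windows of each kind.

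**Figure D4:**
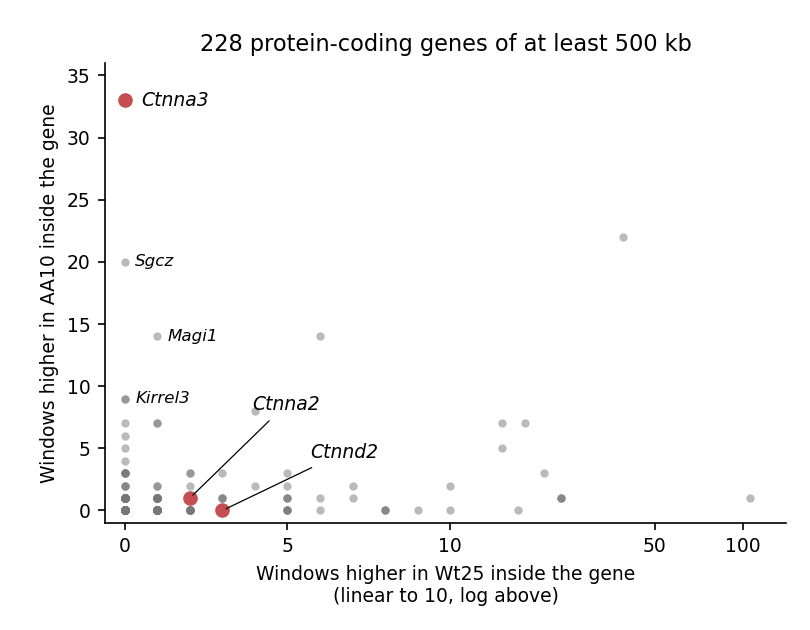
Number of windows higher in AA10 against number higher in Wt25 (linear to 10, log above) inside each of the 228 protein-coding genes of at least 500 kb, with 3 catenin genes in red. Ctnna3 stands at 33 and 0, and Ctnna2 (1 and 2) and Ctnnd2 (0 and 3) lie near the origin.

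The 3 long genes whose pair of densities was nearest to that of *Ctnna3* were *Magi1*, *Sgcz* and *Kirrel3*. *Magi1*, a scaffold of tight junctions, held 14 AA10 windows (2.30 per 100 kb, against 2.10 in *Ctnna3*) and 1 Wt25 window, *Sgcz*, a sarcoglycan, 20 and 0, and *Kirrel3*, an adhesion protein of the immunoglobulin superfamily, 9 and 0. Their windows were spread more widely. The densest 100 kb held 11 of 20 windows in *Sgcz*, 7 of 14 in *Magi1* and 7 of 9 in *Kirrel3*, against 32 of 33 in *Ctnna3*. From the first to the last, the windows covered 11.6% of the length of *Ctnna3*, 86.6% of *Sgcz*, 76.9% of *Magi1* and 83.8% of *Kirrel3*.

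Genes of related function held at most 3 AA10 windows each. In 10 genes for other catenin-like or catenin-binding proteins, 1 held AA10 windows (10.0%) and 3 held Wt25 windows (30.0%), beside 9.98% and 13.3% of all protein-coding genes. The former was *Ctnnbip1*, an inhibitor of β-catenin, with 2. The latter were *Pkp4*, an armadillo protein of cell junctions, with 5, *Ctnnbl1* with 4 and the α-catenin-like *Ctnnal1* with 2. The 10 genes were not matched for length. None of the 3 genes nested in α-catenin genes, *Lrrtm1*, *Lrrtm2* and *Lrrtm3*, held a window of either direction.

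In 11 further genes of the cadherin-catenin junction, 2 held AA10 windows and 5 held Wt25 windows, with 4 AA10 and 26 Wt25 windows in all. The shares over all protein-coding genes were 9.98% and 13.3%, and these genes were not matched for length. *Plekha7*, which links p120 to microtubules, held 16 Wt25 windows and the E-cadherin gene *Cdh1* 5, while the N-cadherin gene *Cdh2* and *Lima1* held 2 each. *Nectin2* held 2 AA10 windows, and the P-cadherin gene *Cdh3* held 2 AA10 windows and 1 Wt25 window. The median was 0 AA10 and 0 Wt25 windows per gene, as over all protein-coding genes.

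In 16 genes of β-catenin turnover and of transcription with β-catenin, 6 held AA10 windows and 6 held Wt25 windows, 8 windows in each direction. The shares over all protein-coding genes were again 9.98% and 13.3%. These 16 genes, 4.9 to 191.8 kb long, were not matched for length either. *Tcf7l1*, a repressor among the Tcf factors, had the most AA10 windows with 3. The scaffolds *Apc* and *Axin2* and the ubiquitin ligase adaptor *Btrc* had 1 each. *Gsk3b*, the kinase that marks β-catenin for destruction, had 1 of each direction, and *Lef1* 1 AA10 and 2 Wt25 windows. *Tcf7l2* held 2 Wt25 windows, and *Fbxw11*, *Bcl9* and *Bcl9l* held 1 each. The 3 AA10 windows of *Tcf7l1* were the most in any gene of these lists, against 33 in *Ctnna3*.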

How the data were processed

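The deposited data used here are 2 lists of positions of DhMRs, 8630 with more 5hmC in AA10 and 12096 with more in Wt25, from 5hmC-DIP of 3 libraries of each line. To make them, the authors mapped reads with STAR (GRCm38, unique alignments only) and took out duplicates with Picard. MEDIPS then tested 200 bp bins between lines. For these bins the paper gives a cut-off on the *P*-value and the fold change and names no correction for the number of bins. Listed windows can therefore include false calls. The paper reports checking several DhMRs by PCR, after 5hmC-DIP or after digestion with an enzyme blocked by modified 5hmC. None of the loci it shows for these checks is a catenin gene. The paper reports discarding bins under IgG-DIP peaks, with simple tandem repeats or of low complexity, and HOMER assigned genes. The TG-rich window of *Ctnna3* was still in the list. The deposited lists pool the replicates and hold no count, fold change or *P*-value, so depth per bin is unknown, no window has an error and no test was run. Versions of these tools are not given in the sources used here.

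Windows were counted by midpoint in GENCODE vM21 basic gene spans with Python 3.11.15. Sequence, CpG number and repeat marks came from GRCm38.p6, and the counting was tested on simulated windows. A gene of the junction list is not reported here and was left out of its counts. The members and gene lists were chosen with earlier results of these data known. Genes named are the 6 catenins, list genes with a window inside, the 5 genes with the most AA10 windows, the 3 long genes nearest in density, genes sharing a window and neighbours of *Ctnna3*. Sequences printed are the windows with the most and fewest CpGs and nearest to the ends or to an exon. Alternatives were other gene spans, overlap rules, joining, repeat and run filters, and other backgrounds. RNA-seq and ChIP-seq samples of the series were not analysed here.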

Additional observations from a re-analysis of the deposited data

How the results depend on the processing

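The count of *Ctnna3* was 20 when windows within 1 kb were joined and 7 without runs of at least 20 windows, which by construction removes its 26 windows of the run. Under the other definitions it was between 24 and 38. Its density was 5.18 times that of the genome when windows within 1 kb were joined. Per length outside repeats, per CpG or in other gene spans the density was 6.11 to 7.66 times that of the genome. No density was computed without runs, where the count fell to 7. With the deposited gene identifier in place of the position, *Ctnna1* had 5 Wt25 windows, *Ctnna2* 0 AA10 and 0 Wt25 windows and *Ctnnd1* 2 AA10 windows. With 10 kb added to both ends, *Ctnna1* had 1 Wt25 window. Without windows of at least 50% repeat, *Ctnna2* had 1 Wt25 window beside its 1 AA10 window. Per length outside repeats it had 0.328 times the genome in AA10 windows and 0.225 times in Wt25 windows. With so few windows, no lean to either direction is read from *Ctnna2*. Counts of 0 stay 0 under any other length or CpG number and say nothing of stability. The AA10 share of *Ctnna3* exceeded that of its background by 58.4 percentage points for the genome, 65.9 for the rest of chromosome 10, 66.6 for other long genes and 29.6 for the 500 kb on both sides. *Ctnna3* was chosen for its count of AA10 windows, so nothing is read from this excess. For *Ctnna2* the difference was -8.31 points from the genome and -54.8 from the rest of chromosome 6. It was -33.3 from the 500 kb on both sides and -0.04 from other long genes. For *Ctnnd2* it was -41.6 from the genome, -41.2 from the rest of its chromosome and -33.4 from other long genes. From the 500 kb on both sides, which hold 1 AA10 window, it was -100. No paired analysis was possible because the result comes from no test and the lists pool the replicates, and for the same reason no replicate could be left out.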

Other observations

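Genes farther from *Ctnna3* were looked at after the values were seen. *Sirt1*, which encodes a deacetylase and lies before *Dnajc12*, held 5 AA10 windows and 1 Wt25 window, and *Herc4*, a ubiquitin ligase gene, held 3 and 0. Next came *Mypn*, a gene for a sarcomere protein, with 0 AA10 windows and 5 Wt25 windows. At 521.1 kb before *Ctnna3*, *Tet1*, 1 of the genes disrupted in these cells, held 9 AA10 windows and 0 Wt25 windows over 104.43 kb, or 8.62 per 100 kb. Among long genes with at least 5 AA10 windows, *Nckap5* was another whose AA10 windows lay close together, with all 9 in 56.0 kb, and *Ank2* held all 5 of its AA10 windows in 62.8 kb beside 15 Wt25 windows.

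The share of AA10 windows differed between the chromosomes of the catenins. It was 88.0% on chromosome 6, 58.5% on 18, 41.0% on 15, 36.1% on 10, 31.8% on 9 and 26.1% on 2. The copy number of these chromosomes in the clones was not analysed here.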
